A study of Solanum tuberosum and Solanum acaule with 12 samples.

Results

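The gene models of chromosome 4 were followed through freezing in shoots of Solanum tuberosum cv. Atlantic, an autotetraploid potato cultivar. Its 3 freezing libraries came from shoot explants in a chamber that started at 22 °C, lost 2 °C each hour and ended at -4 °C, and its 3 control libraries from shoots kept under long days. The replicates are called biological, with no word on separate plants, and p-values reflect only how far these libraries vary. The placement table lists 6842 gene models on copies 1 to 4 of chromosome 4, where copy stands for the number after the chromosome name. Of these, 4132 had at least 1 assembled transcript that listed no other gene model, and the values of such transcripts were summed to a gene model. The 2897 that reached a signal of 1 in at least 3 of the 6 libraries are the members described here, out of 37846 gene models that passed the same rule on all Atlantic chromosomes. The other 1235 stayed below the rule, and 2710 had no transcript of their own. The chromosome was chosen because its gene models had been called higher more often than those of other chromosomes in an earlier pass over the same libraries, so that excess is a description with no test.

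An autotetraploid carries homologous copies of each chromosome, and the copies of a gene on them are alleles that can differ in sequence and in activity. Cold changes the transcript levels of many plant genes within hours, and cultivated potato is known as a frost-sensitive crop with little capacity to harden. Genes that arose by local duplication often lie side by side, and plant chromosomes tend to be gene-rich toward their ends and gene-poor around the centromere. Values are the deposited signal, scaled between libraries by the authors. Its totals near those of TPM do not show whether it is per transcript length, so levels are compared between libraries and not as abundances of different genes. The depth behind them is unknown. In these bulk samples fewer cells of a type and less RNA per cell cannot be told apart. Of the gene models, 0 matched the table of gene names, so shoot markers could not be checked and no function is given.

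Of the 2897 gene models, 138 (4.76%) were called higher after freezing, against 3.18% over all Atlantic gene models, and 107 (3.69%) were called lower, against 3.89% (limma, adjusted p under 0.05). On copies 1 to 4 of the other chromosomes 3.02% were higher and 3.78% lower. The 138 that rose had a median log2 fold change of 1.27 and a range of 0.59 to 3.81, and 92 of them rose at least 2-fold. The 107 that fell had a median of -1.07 and a range of -4.16 to -0.60, and 61 fell at least 2-fold. The median log2 fold change was 0.03 over the chromosome and 0.03 over all Atlantic gene models. In each of the 245 called gene models the freezing and control libraries did not overlap. Groups without overlap were found in 18.1% of the chromosome 4 gene models in the higher direction and 15.2% in the lower, beside 17.1% and 15.2% over all Atlantic gene models.

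The number of calls depended on single libraries. Without control replicate 1, 2 or 3 there were 10, 13 and 29 higher and 10, 17 and 19 lower gene models, and without freezing replicate 3 there were 36 and 26. Without freezing replicate 2 there were 193 and 141.

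The 138 gene models that rose summed to 2862, 2737 and 2892 in freezing replicates 1 to 3, against 874, 995 and 1013 in control replicates 1 to 3. The 107 that fell summed to 854, 788 and 775 in the freezing libraries and 2342, 2196 and 2175 in the control libraries. Both sums were chosen by the same values and are given as sizes only. In each direction the freezing and control sums lay far apart. They stood beside 37753 ± 1013 after freezing and 36066 ± 770 in control for the 2652 gene models without a call (n = 3 per group, SD). The following values describe the called models, with no test. The placed span had a median of 3546 bp in risen and 2604 bp in fallen models, against 4809 bp in those without a call. A single transcript made up 31.9% of the risen and 44.9% of the fallen models, against 24.8% of the rest. The control level had a median of 4.35 in risen, 5.28 in fallen and 4.99 in the remaining models, which are close to each other. In 17 risen models every control library was below 1, and in 23 fallen models every freezing library was below 1. These 40 passed the rule on low values through 1 group alone and had to differ, among 29 models that passed only through freezing and 39 only through control.

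Copies 1, 2, 3 and 4 held 805, 566, 625 and 901 of the members. Gene models that rose made up 4.97% of copy 1 (40 models), 4.95% of copy 2 (28), 5.12% of copy 3 (32) and 4.22% of copy 4 (38). Those that fell made up 3.60% (29), 3.0% (17), 4.32% (27) and 3.77% (34). Whether the copies differ in these shares was not tested, and copies are not independent, since gene models on different copies often share an assembled locus. Grouped by shared assembled loci, the 138 risen models came to 82 groups and the 107 fallen models to 81, out of 1320 groups for the chromosome. Groups were not counted on the other chromosomes.

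The tested gene models were unevenly spread along each copy. On copies 1 and 4 they were sparse in the middle, and on copies 2 and 3 they were also sparse in the last bin. On copy 1, whose last tested model ended at 31.5 Mb, only 24 tested models started between 10 and 15 Mb and 27 between 15 and 20 Mb, against 228 between 25 and 30 Mb. Copy 4 had 34 and 73 in the same bins, and copy 3 had 53 between 10 and 15 Mb and 5 between 25 and 30 Mb. Copy 2, which ended at 23.8 Mb, was lowest between 20 and 25 Mb with 4, and had 81 between 10 and 15 Mb. The largest interval between neighbouring tested models was 2159 kb on copy 1, 2125 kb on copy 2, 1995 kb on copy 3 and 2456 kb on copy 4.

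Risen and fallen models lay on both sides of the sparse middle of copies 1, 3 and 4, and of the 10 to 15 Mb bin of copy 2. The last called model started at 18.8 Mb on copy 2 and at 23.3 Mb on copy 3, and the bins after it held 4 and 5 tested models with 0 calls. On copy 1 the risen models reached from 0.436 Mb to 31.4 Mb and the fallen models from 1.55 to 30.7 Mb. By count the bin with the most risen models was 20 to 25 Mb, with 10 of 134 tested (7.46%). As a share the sparse bins were similar, with 2 of 24 risen between 10 and 15 Mb (8.33%). Between 15 and 20 Mb 2 of 27 rose (7.41%). Fallen models in these sparse bins numbered 0 and 1. The bin with the most fallen models was 25 to 30 Mb, with 10 of 228 (4.39%). The longest stretch without a fallen model, picked from these calls, ran from 8.41 to 19.2 Mb (10.8 Mb, 82 tested models). Fallen models made up 3.60% of copy 1, and whether the stretch is longer than that share would give was not tested. Inside the stretch 5 models that rose started, at 8856027, 9388545, 12653240, 12965801 and 18243292.

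On copy 4 the longest stretch without a fallen model had a similar position, between 7.62 and 17.5 Mb, with 72 tested models. By count its risen models were most numerous between 20 and 25 Mb and between 25 and 30 Mb, with 9 in each bin, but as a share these were 4.95% of 182 and 3.04% of 296 tested, the second being the lowest of its bins. Its fallen models were most numerous in the first 5 Mb, with 10 of 178 tested (5.62%), and between 25 and 30 Mb, with 13 of 296 (4.39%). In its sparse bins 2 of 34 models rose between 10 and 15 Mb (5.88%) and 3 of 73 between 15 and 20 Mb (4.11%). Fallen models there numbered 0 and 2.

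On copy 2 the largest number of risen models, 11 of 190 tested (5.79%), lay between 15 and 20 Mb, where only 3 (1.58%) fell. Between 10 and 15 Mb of the same copy 3 rose (3.70%) and 5 fell (6.17%) of 81. On copy 3 the first 5 Mb held the most risen models of any bin of the chromosome, 12 of 161 (7.45%), with 5 fallen (3.11%). Between 8.23 and 14.7 Mb of copy 3 no model rose among 69 tested. Bins are given in the coordinates of each copy and do not mark the same genes on different copies. The median log2 fold change per bin ranged from -0.04 to 0.16, so no 5 Mb stretch shifted as a whole beyond that range.

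**Figure D1:**
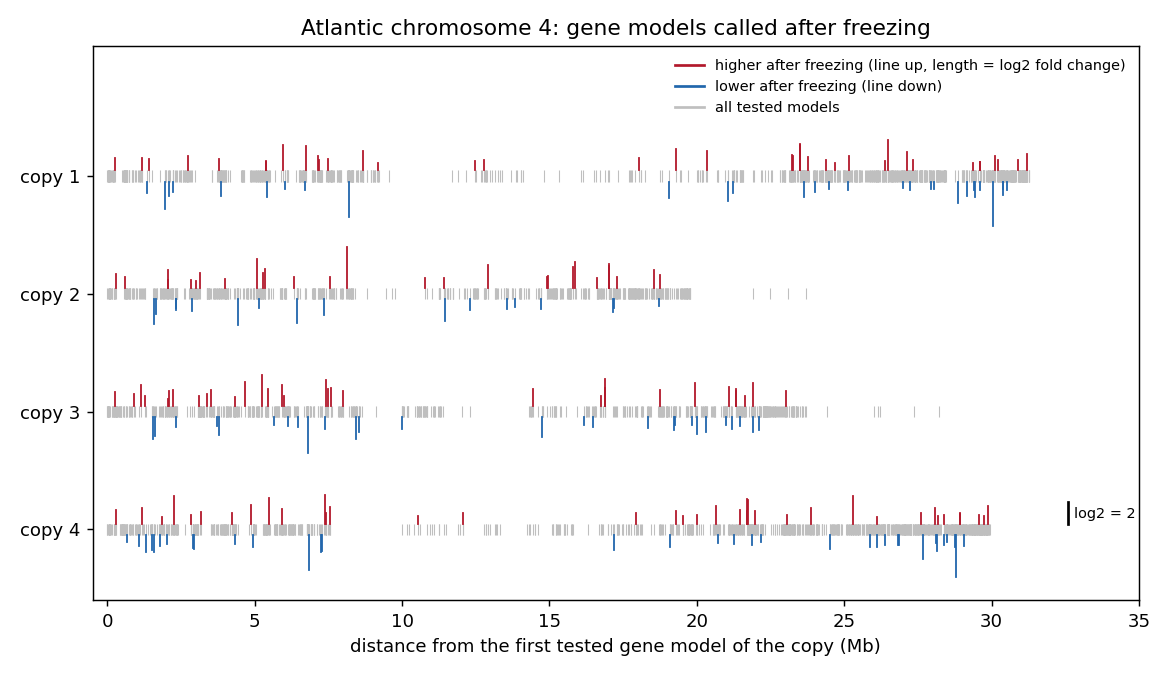
Positions of the tested gene models on copies 1 to 4 of Atlantic chromosome 4, as distance in Mb from the first tested model of each copy. Grey ticks are all 2897 tested models, red lines upward the 138 that rose after freezing and blue lines downward the 107 that fell. The length of a line gives the log2 fold change. Tested models are sparse in the middle of copies 1 and 4 and at the end of copies 2 and 3.

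Loci with 1 tested model per copy had nearly the same order on every copy. Over 312 to 677 such loci per pair of copies, the lowest Spearman's rho of their start positions was 0.998, a description of the placement table. A locus can therefore be followed from copy to copy by position.

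Gene models with the same call were sometimes neighbours. Of the 138 risen models, 42 (30.4%) had another risen model within 100 kb on the same copy, and of the 107 fallen models 28 (26.2%) had another fallen one. On copies 1 to 4 of the other chromosomes these shares were 25.6% and 25.3%. Pairs of adjacent models with the same call, with no tested model between, numbered 15 for risen and 4 for fallen models. Copies 1 to 4 of the other chromosomes had 53 and 75 such pairs, among 930 risen and 1164 fallen models. On chromosome 4 the risen pairs formed 10 runs of 2 models, 1 run of 3 and 1 run of 4, and the fallen pairs formed 4 runs of 2. Of the 107 fallen models, 34 had a risen model within 100 kb, a count that was not made on the other chromosomes.

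The runs of 3 and 4 risen models were the same group of genes on different copies. On copy 1, 4 models from 23688491 to 23702066 rose, and on copy 2, 3 models from 17103964 to 17117083. Models that share assembled loci with them were found on copy 3 from 21569019 to 21588472 and on copy 4 from 22050374 to 22075488, a search made after the runs had been seen. The group held 13 tested models, of which 11 rose and 0 fell. Those on copies 1 and 2 had risen by the choice of the runs. Copies 3 and 4 each had 2 risen among 3 models. These models were found through assembled loci shared with the chosen runs, so their calls are no independent support. Over the 13 models 8 assembled loci were spread, and how alike the sequences of the models are was not measured. How the authors' counting divided reads among these models is not known, so single members are uncertain and the sums per copy are the safer values.

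On copy 1 the 4 models summed to 73.0, 62.4 and 67.9 in freezing replicates 1 to 3, against 10.5, 7.12 and 16.8 in control replicates 1 to 3. On copy 2 the 3 models summed to 35.4, 40.8 and 44.9 in freezing libraries and 6.54, 4.30 and 11.2 in control libraries. The freezing libraries were above every control library on both copies, by 5.91 and 5.51 times in the means. Both ratios are sizes only, since these models were chosen for their calls. On copy 3 the 3 models summed to 11.2, 10.7 and 8.74 after freezing and 2.33, 1.57 and 4.44 in control, and on copy 4 to 38.8, 33.2 and 23.9 after freezing and 5.86, 2.55 and 6.89 in control. Copy 3 had the lowest signal of the group in both conditions, and its ratio of means was 3.67 beside 6.27 on copy 4.

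Within the group the second model of copy 1, at 23691608 to 23692988, had 32.3, 20.2 and 26.6 after freezing, against 4.05, 2.42 and 6.59 in control, a log2 fold change of 2.40 (limma adjusted p = 0.0126, SE 0.32). Without control replicate 1 its limma adjusted p was 0.0691 (0.0122 to 0.0691 over 14 alternatives). The first model of copy 4, at 22050374 to 22051806, had 8.92, 14.1 and 13 after freezing and 1.81, 0.957 and 1.92 in control, a log2 fold change of 2.34 (limma adjusted p = 0.00674, SE 0.24). It was called under every alternative. The middle models of copies 3 and 4 were not called, with log2 fold changes of 0.57 and 0.93 (limma adjusted p = 0.148 and 0.0954). Of the 11 risen members 1 was called without control replicate 1, 2 without control replicate 2, 8 without control replicate 3 and 7 without freezing replicate 3.

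**Figure D2:**
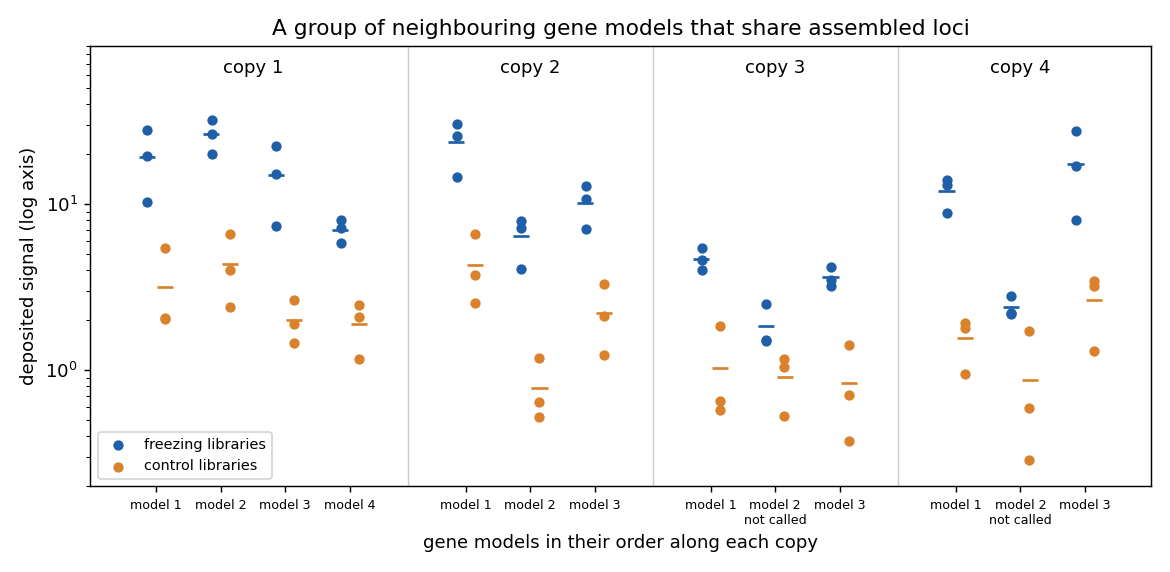
Signal of the 13 gene models of the neighbouring group on copies 1 to 4, in their order along each copy, on a log axis. Points are libraries (blue, freezing; orange, control) and short lines group means; in the 11 called models every freezing library is above every control library.

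A fallen gene model followed this group at a similar distance on 3 of the copies. These models share 1 assembled locus and lie 121 kb after the group on copy 1, 140 kb on copy 2 and 111 kb on copy 3, with 10, 10 and 8 tested models between. The remaining copy had no tested model of this locus. On copy 1, at 23822770 to 23824011, it had 41.6, 47.3 and 49.6 after freezing, against 122, 135 and 124 in control (log2 fold change -1.44, SE 0.15, limma adjusted p = 0.00738). On copy 2, at 17256719 to 17257982, it had 65.2, 85.2 and 83.6 after freezing, against 172, 185 and 160 in control (-1.14, SE 0.18, limma adjusted p = 0.0193). On copy 3, at 21699012 to 21700201, it had 74.7, 86.3 and 77.6 after freezing, against 136, 143 and 149 in control (-0.84, SE 0.15, limma adjusted p = 0.0280). The freezing levels were closest to the control levels on copy 3. These 3 values per model were picked after the group had been seen.

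Among called gene models without overlap between the groups that averaged 10 or more where they were higher, 76 rose and 30 fell. The 10 with the largest log2 fold change in each direction are described. The 10 risen ones came from 6 groups of shared assembled loci and the 10 fallen ones from 7, so several are copies of 1 gene. The largest rise was that of Soltu.Atl.04_2G006880, on copy 2 at 8235645 to 8237319. It had 92.1, 103 and 118 after freezing, against 3.70, 6.70 and 10.5 in control, a log2 fold change of 3.81 (limma adjusted p = 0.00438, SE 0.32; 0.00245 to 0.0315 over 14 alternatives). Its 3 freezing libraries stood close together, and all were far above the control libraries.

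The second largest rise was that of Soltu.Atl.04_3G004390, on copy 3 at 5476125 to 5478467. It had 28.8, 19.3 and 30.7 after freezing, against 1.55, 4.06 and 2.50 in control, a log2 fold change of 2.91 (limma adjusted p = 0.00679, SE 0.29; 0.00573 to 0.0429 over 14 alternatives). On chromosome 4, 4 of the 206 loci tested on every copy rose on all 4 copies, a count not made on other chromosomes. The assembled locus of this model was among them. On copy 2, at 5171311 to 5173499, it had 35.6, 24.9 and 43.0 after freezing and 2.77, 5.65 and 5.05 in control. On copy 4, at 5825692 to 5827925, it had 37.9, 22.4 and 40.0 after freezing and 3.26, 6.96 and 5.68 in control. On copy 1, at 6940838 to 6943153, it had 32.5, 20.3 and 29.1 after freezing and 3.66, 5.35 and 6.44 in control. Mean control levels lay between 2.70 and 5.30 on the 4 copies, lowest on copy 3, and freezing replicate 2 was the lowest freezing library on each. The log2 fold changes were 2.70 on copy 2, 2.45 on copy 4 and 2.20 on copy 1 (SE 0.29, 0.31 and 0.25; limma adjusted p = 0.00738, 0.0117 and 0.00846). The copy 4 call was lost without control replicate 1 (limma adjusted p = 0.0519; 0.0103 to 0.0519 over 14 alternatives).

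A pair of models sharing a locus rose with a wide spread between freezing libraries. On copy 1, at 26674834 to 26676361, it had 85.8, 37.6 and 23.0 after freezing, against 7.57, 4.84 and 3.96 in control (log2 fold change 2.78, SE 0.47, limma adjusted p = 0.0232). On copy 4, at 25635316 to 25636698, it had 93.0, 40.6 and 20.5 after freezing, against 8.42, 5.57 and 4.78 in control (2.63, SE 0.51, limma adjusted p = 0.0329). Replicate 1 was the highest library of both groups on both copies. Both calls were lost when any 1 control library was left out, with limma adjusted p from 0.0773 to 0.0890 on copy 1 and from 0.0969 to 0.113 on copy 4 (0.0209 to 0.0890 and 0.0304 to 0.113 over 14 alternatives each).

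Another shared locus gave the models on copy 4 at 7732896 to 7734111 and on copy 3 at 7666721 to 7667848. The copy 4 model had 40.7, 52.4 and 18.9 after freezing, against 6.84, 3.70 and 3.47 in control (2.69, SE 0.40, limma adjusted p = 0.0171). It lost its call without any 1 control library (limma adjusted p from 0.0586 to 0.0735, beside 0.0174 to 0.0735 over 14 alternatives). The copy 3 model had 55.1, 47.2 and 47.7 after freezing, against 10.3, 6.32 and 9.40 in control (2.42, SE 0.20, limma adjusted p = 0.00426) and kept its call under all 14 alternatives. The freezing libraries were closer together on copy 3 than on copy 4.

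Of the 10 largest rises, 2 were less firm. The model on copy 4 at 2587361 to 2588924 had 8.43, 25.5 and 6.61 after freezing, against 1.07, 0.581 and 1.84 in control (2.56, SE 0.48, limma adjusted p = 0.0300), with freezing replicate 2 well above the other freezing libraries. Its call was lost under 5 of 14 alternatives, among them leaving out freezing replicate 3 or any 1 control library (limma adjusted p from 0.0501 to 0.112). The model on copy 3 at 17126920 to 17130478 had 78.7, 19.6 and 33.8 after freezing, against 3.04, 10.1 and 5.58 in control (2.53, SE 0.55, limma adjusted p = 0.0433). Its call was lost under 8 of 14 alternatives, among them leaving out freezing replicate 1 or 3 or any 1 control library (limma adjusted p from 0.0518 to 0.144).

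The largest fall was that of Soltu.Atl.04_1G020160, on copy 1 at 30245189 to 30246175. It had 2.38, 1.84 and 0.996 after freezing, against 46.3, 30.1 and 74.0 in control, a log2 fold change of -4.16 (limma adjusted p = 0.00438, SE 0.35; 0.00381 to 0.0361 over 14 alternatives). The second was Soltu.Atl.04_4G020490, on copy 4 at 29137757 to 29138850, which shares its locus. It had 2.68, 1.16 and 1.15 after freezing, against 39.7, 25.2 and 54.4 in control (-3.92, SE 0.33, limma adjusted p = 0.00442; 0.00381 to 0.0366 over 14 alternatives). Both models lay near the far end of their copy and were close to the limit of 1 after freezing.

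The next 3 falls were copies of 1 locus. On copy 3, at 7058263 to 7061305, the model had 1.54, 0.39 and 1.1 after freezing, against 29.7, 20.8 and 10.1 in control (-3.32, SE 0.40, limma adjusted p = 0.0108). On copy 1, at 8406275 to 8409361, it had 1.73, 0.216 and 1.23 after freezing, against 29.4, 21.0 and 9.96 in control (-3.32, SE 0.44, limma adjusted p = 0.0131). On copy 4, at 7172861 to 7176016, it had 3.77, 1.0 and 3.26 after freezing, against 51.8, 35.8 and 17.6 in control (-3.26, SE 0.47, limma adjusted p = 0.0157). Freezing replicate 2 and control replicate 3 were the lowest of their groups on all 3 copies. Without control replicate 2 the call was lost on copy 3 (limma adjusted p = 0.0556), and without control replicate 1 or 2 on copy 1 (0.0603 to 0.0628) and copy 4 (0.0684 to 0.0691); over 14 alternatives the values ran from 0.0103, 0.0123 and 0.0129 up to these highest ones.

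Among the other large falls, the model on copy 1 at 21249938 to 21250949 had 2.88, 2.52 and 3.12 after freezing, against 10.5, 14.8 and 12.2 in control (-1.80, SE 0.17, limma adjusted p = 0.00527), and it kept its call under all 14 alternatives. On copy 2 the model at 6514816 to 6516939 had 10.9, 4.23 and 6.32 after freezing, against 33.4, 41.6 and 27.7 in control (-2.18, SE 0.32, limma adjusted p = 0.0161). Its call was lost without freezing replicate 3 and without any 1 control library (0.0516 to 0.0773). The copy 2 model at 11547301 to 11552399 had 4.33, 3.58 and 2.86 after freezing, against 21.1, 22.2 and 11.2 in control (-2.02, SE 0.28, limma adjusted p = 0.0142), and lost its call without freezing replicate 3, control replicate 1 or control replicate 2 (0.0527 to 0.0720). The rule that chose these models required no overlap between the groups.

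The fallen model with the largest difference in signal lay on copy 1 at 29041105 to 29044371. It had 194, 57.5 and 136 after freezing, against 503, 507 and 383 in control (-1.99, SE 0.43, limma adjusted p = 0.0430). It lost its call under 7 of 14 alternatives, among them leaving out freezing replicate 3 or any 1 control library (0.0565 to 0.145). Outside the rule for the 10 largest fold changes and chosen after its values were seen, the copy 3 model at 4909962 to 4917673 had 108, 132 and 89.4 after freezing, against 23.6, 17.0 and 30.4 in control (2.19, SE 0.25, limma adjusted p = 0.00937).

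**Figure D3:**
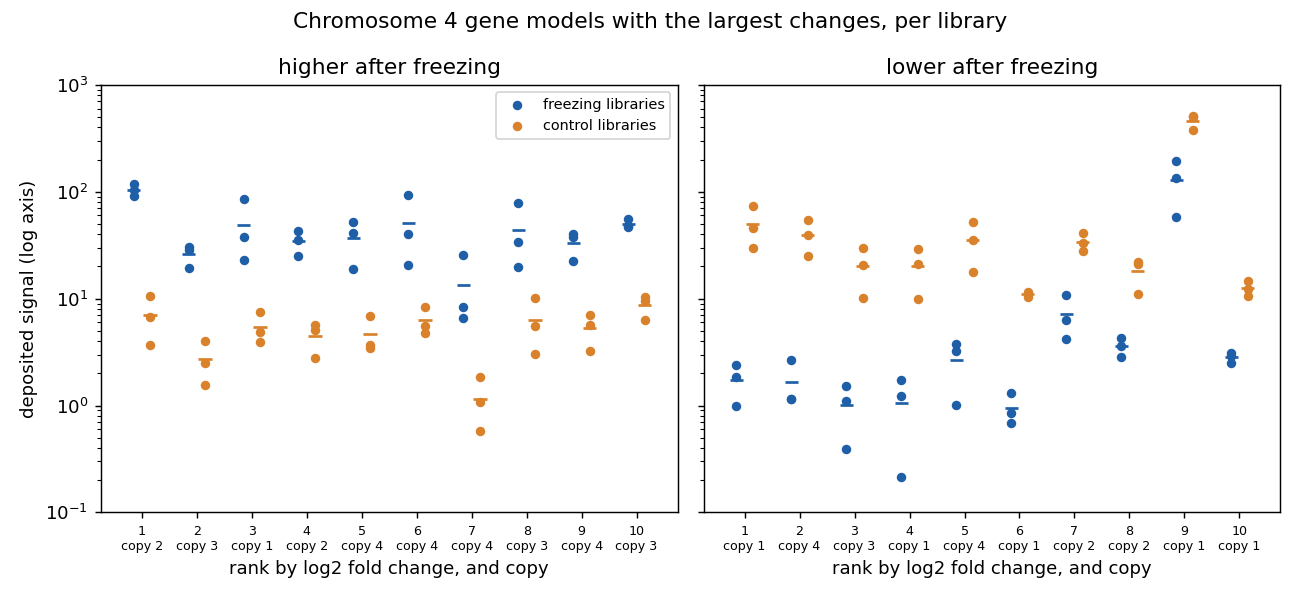
Signal of the 10 risen (left) and 10 fallen (right) gene models with the largest log2 fold changes, on a log axis, with the copy under each rank. Points are libraries (freezing in blue, control in orange) and short lines group means. The freezing and control libraries of a model do not overlap, which the rule that chose the models required. The spread between freezing libraries is wide in risen models such as the third and the sixth.

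Of 2473 assembled loci with a tested model, 1386 had one on 1 copy, 644 on 2, 237 on 3 and 206 on 4. Loci with a risen model had it on 1 copy in 100 cases, on 2 in 23, on 3 in 9 and on 4 in 4. Loci with a fallen model had it on 1 copy in 92 cases, on 2 in 17, on 3 in 2 and on 4 in 2. These counts were not made on the other chromosomes, so they are not shown to be particular to chromosome 4. Of the loci called on 1 copy, 55 risen and 52 fallen ones had only 1 tested copy and could not be called on more. A copy without a call is not shown to differ from a copy with one, which the ratios between copies address. A single locus had calls in both directions. Its copy 3 model, at 2292894 to 2297981, had 3.56, 4.15 and 3.53 after freezing and 1.73, 1.91 and 2.32 in control (limma adjusted p = 0.0446), and its copy 4 model, at 2365333 to 2376512, had 4.05, 3.01 and 4.28 after freezing and 6.29, 6.86 and 8.36 in control (limma adjusted p = 0.0478). The copy 4 model also sums transcripts of other loci, 4 in all. The copy 1 and copy 2 models of this locus were not called, with log2 fold changes of 0.18 and 0.39. No ratio between its copies was called, so an unequal response of the copies is not shown.

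Besides the locus of Soltu.Atl.04_3G004390, 3 loci rose on every copy. The one with the next largest changes lay at 25342214 to 25348232 on copy 1, where it had 43.3, 31.2 and 35.7 after freezing and 12.8, 17.1 and 12.8 in control, with log2 fold changes of 1.31, 1.22, 1.40 and 1.5 on copies 1 to 4. The locus near the start of the chromosome, at 627986 to 630704 on copy 4, had 75.1, 117 and 150 there after freezing and 39.9, 46.8 and 45.6 in control, with 1.12, 1.30, 1.29 and 1.30 on copies 1 to 4. Its freezing libraries kept the same order on each copy, replicate 1 lowest and replicate 3 highest. The fourth locus, at 3994953 to 4001794 on copy 1, had 15.8, 17.6 and 20.6 there after freezing and 8.44, 8.79 and 8.03 in control, with 1.0, 0.74, 0.88 and 0.85 on copies 1 to 4. The limma adjusted p of these 12 models ran from 0.0161 to 0.0393, and each lost its call under 4 to 7 of 14 alternatives, with control replicates 1 and 3 and freezing replicate 3 among the omissions that ended it (highest limma adjusted p 0.147).

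Of the 2 loci that fell on every copy, the first lay at 2152889 to 2153920 on copy 1 and had 1.32, 0.691 and 0.859 there after freezing, against 11.5, 10.4 and 11.2 in control (-2.63, SE 0.17, limma adjusted p = 0.00165). On copy 2, at 1687490 to 1688325, it had 1.5, 0.685 and 0.724 after freezing and 8.07, 7.51 and 9.38 in control (-2.26, SE 0.20, limma adjusted p = 0.00474). On copy 3, at 1803585 to 1804645, it had 0.656, 0.307 and 0.415 after freezing and 4.70, 5.33 and 4.82 in control (-2.03, SE 0.15, limma adjusted p = 0.00324). That copy 3 model was below 1 in every freezing library, so it passed the rule on low values through the control libraries alone and had to differ. On copy 4, at 1843184 to 1844358, it had 1.34, 0.437 and 0.927 after freezing and 3.77, 4.08 and 3.87 in control (-1.40, SE 0.20, limma adjusted p = 0.0159). The control levels descended from copy 1 to copy 4, and after freezing all copies were near or below 1. The copy 4 call was lost without freezing replicate 3 or any 1 control library (0.0546 to 0.0762), and the others were kept.

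The second locus lay close by, at 2274411 to 2276621 on copy 1. It had 1.42, 1.18 and 1.87 there after freezing and 6.45, 3.55 and 6.34 in control, with log2 fold changes of -1.35, -1.40, -1.73 and -1.53 on copies 1 to 4 (limma adjusted p = 0.0255, 0.0257, 0.0190 and 0.0301). Each of these calls was lost without control replicate 1 or 3 (highest limma adjusted p 0.119).

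**Figure D4:**
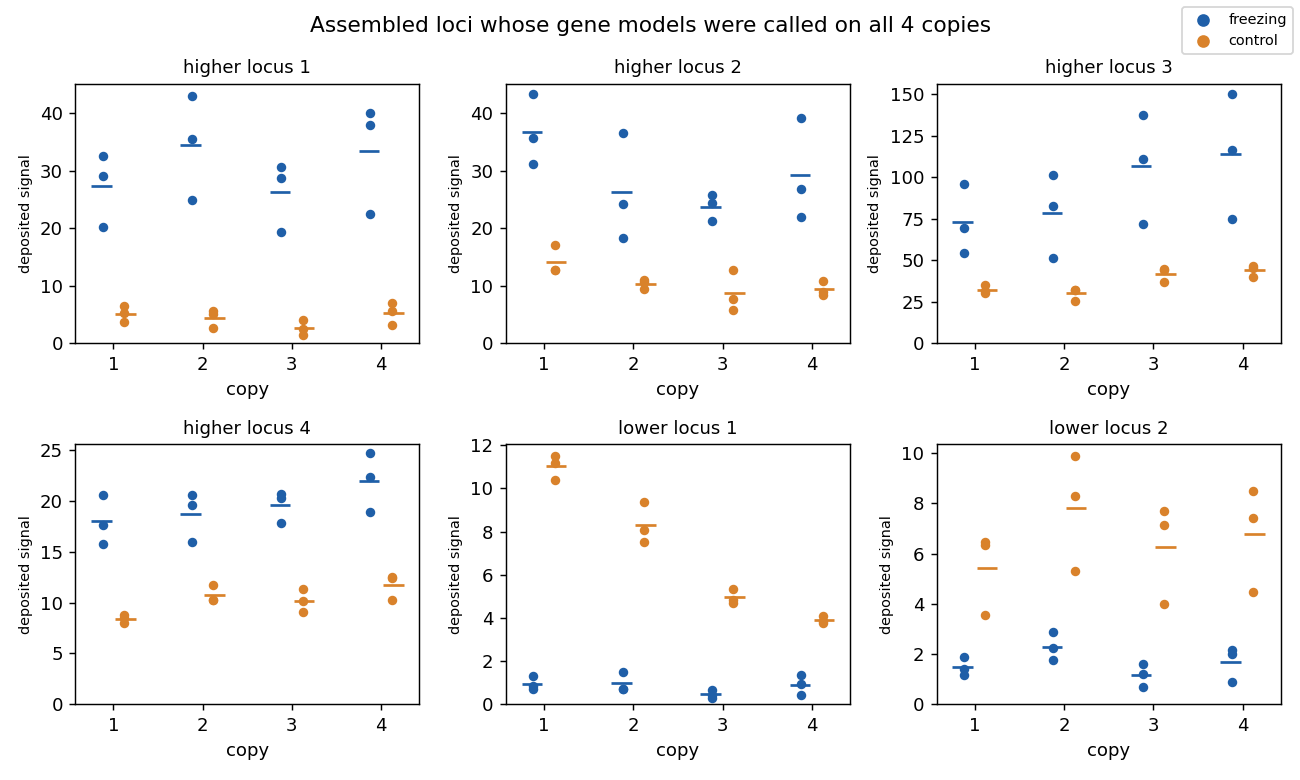
Signal on copies 1 to 4 of the 4 assembled loci that rose and the 2 that fell on every copy after freezing. Points are libraries (blue, freezing; orange, control), short lines are group means, and each panel has its own linear axis from 0; the groups do not overlap on any copy.

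Whether copies of a locus responded unequally was tested through the ratio of each copy to the mean of the other copies of the locus. Of 2348 ratios at 868 chromosome 4 loci, 27 differed between freezing and control (1.15%, against 1.16% of all Atlantic ratios; limma, adjusted p under 0.05). They came from 16 loci, of which 9 had 2 copies, whose ratios mirror each other. Without any 1 control library 0 of the 27 remained called, with 336 to 340 ratios at an unadjusted limma p under 0.05. Without freezing replicate 3 there were 6 calls, of which 4 were among the 27. How reads shared by near-identical copies were assigned is not given in the sources used here, so shares per copy carry that uncertainty.

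At the locus on copy 4 at 28429041 to 28434219 and copy 1 at 29555637 to 29560564, both copies were higher after freezing, by unequal amounts. Copy 4 had 13.7, 18.1 and 15.6 after freezing, against 4.54, 5.44 and 4.83 in control. Copy 1 had 7.66, 8.17 and 7.25 after freezing, against 4.26, 5.26 and 4.48 in control. Copy 4 held 67.1 ± 2.57% of the locus after freezing and 51.4 ± 0.540% in control (n = 3 per group, SD), a log2 ratio change of 0.88 (SE 0.10, limma adjusted p = 0.0206).

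At the locus on copy 3 at 3666591 to 3751644 and copy 1 at 4611382 to 4729226, the shares moved apart from near equality. Copy 3 had 5.78, 3.67 and 3.28 after freezing and 2.23, 2.05 and 3.13 in control, whereas copy 1 had 1.67, 1.09 and 1.12 after freezing and 2.27, 1.95 and 2.79 in control. Copy 3 held 67.1 ± 3.73% after freezing and 46.2 ± 1.63% in control (n = 3 per group, SD), a log2 ratio change of 1.12 (SE 0.11, limma adjusted p = 0.0149). Copy 1 held 20.8 ± 2.58% after freezing and 44.0 ± 2.62% in control, and the rest lay on copies left out of the ratio. Each side sums 2 gene models. With no filter on low values the copy 3 ratio lost its call (limma adjusted p = 0.0588).

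The model on copy 4 at 2587361, among the largest rises, belonged to a locus with 3 tested copies. Copy 4 held 32.7 ± 6.86% of it after freezing and 9.41 ± 2.05% in control, and copy 1 held 19.2 ± 3.99% after freezing and 45.9 ± 2.24% in control (n = 3 per group, SD; limma adjusted p = 0.0321 and 0.0206). Copy 3 held 44.4 ± 5.15% after freezing and 42.4 ± 2.78% in control, and its ratio was not called (limma adjusted p = 0.416). Without freezing replicate 3 the copy 4 call was lost (limma adjusted p = 0.0638) and the copy 1 call was kept (0.0364).

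In the first locus that fell on every copy, copy 1 held 29.8 ± 2.60% of the remaining signal after freezing and 39.1 ± 1.64% in control, and copy 4 held 26.7 ± 5.61% after freezing and 13.9 ± 0.924% in control (n = 3 per group, SD; limma adjusted p = 0.0218 and 0.0206). With a pseudocount of 0.1 in place of 1 both calls were lost (limma adjusted p = 0.0641 and 0.0623). Both were also lost without freezing replicate 3 (limma adjusted p = 0.0657 and 0.0617). Copy 1 at 1357995 held 75.8 ± 4.93% of another locus after freezing and 47.7 ± 4.55% in control, and copy 4 at 21585776 held 85.7 ± 1.86% of a further one after freezing and 67.0 ± 0.796% in control (n = 3 per group, SD; limma adjusted p = 0.0206 and 0.0306). The call at 1357995 was lost without freezing replicate 3 (limma adjusted p = 0.0617). The second was set against a copy 3 model that reached 1 in control libraries only. The second call was lost with no filter on low values (limma adjusted p = 0.122) and without freezing replicate 1 or 3 (0.0562 and 0.0800).

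**Figure D5:**
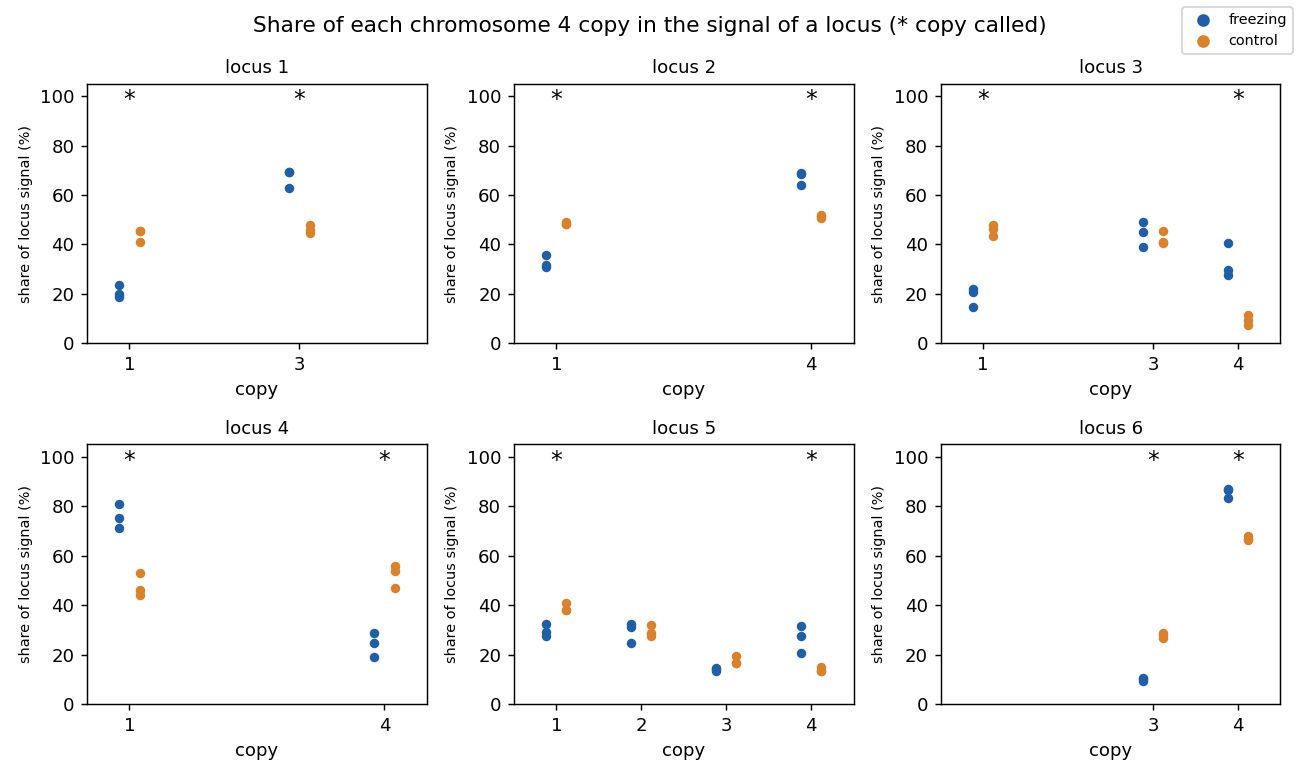
Share in percent of each copy in the summed signal of 6 loci with a called ratio, with points for libraries (blue, freezing; orange, control) and asterisks over called copies. Locus 1 is the one on copies 1 and 3, locus 2 the one on copy 4 at 28429041, locus 3 the one on copy 4 at 2587361, locus 4 the one on copy 1 at 1357995, locus 5 the one that fell on every copy and locus 6 the one on copy 4 at 21585776; freezing and control shares do not overlap at the called copies.

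The rule on low values was met at its edge by a copy 2 model at 942594 to 949433, with 2.81, 1.0 and 1.35 after freezing and 0.984, 0.588 and 0.531 in control. Just outside it lay a copy 3 model at 7775745 to 7776471, with 0.999, 2.13 and 1.15 after freezing and 0.766, 0.111 and 0 in control.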

How the data were processed

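Shoot RNA of Atlantic was sequenced in 3 freezing and 3 control libraries. The deposited signal was scaled between libraries by the authors (totals of 961746 to 1102442); its formula, and whether it is per length, is not stated. There are no counts, so depth and counting error are unknown. The submitters' processing notes list DESeq2 and Trimmomatic 0.39. Aligner, counter and genome build: not given in the sources used here. Positions are as the deposited placement table gives them. Values of transcripts listing 1 gene model were summed per model, which kept 68.1% to 71.3% of the signal placed on chromosome 4; the 4836 transcripts there that list several models were left out. log2(signal + 1) of all 37846 models with 1 or more in at least 3 libraries was fitted with limma 3.58.1 (R 4.3.3, variance trend, Benjamini-Hochberg over all models). Fold changes are on that scale and understate changes of low models. Ratios between copies were fitted likewise. The models named are the 10 per direction with the largest log2 fold change among those called, with no overlap and averaging 10 or more where higher, besides runs of at least 3 neighbours and loci called on 4 copies. On simulated data for this comparison, 48, 39, 35 and 48 of 50 changed models were called at log2 changes of -3, -1.5, 1.5 and 3, with 11 false calls over 37846 models. The changed models were drawn only from those averaging 10 or more on the log scale. Noise was independent between libraries, so these rates do not cover lower models or shared variation. The chromosome, members and lists were chosen with earlier results of these data known. Alternatives varied pseudocount, filter, scaling, fold minimum, transcript assignment, replicate block, variance trend and libraries.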

Additional observations from a re-analysis of the deposited data

How the results depend on the processing

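Of 138 higher and 107 lower chromosome 4 gene models, leaving out 1 library gave 10 to 193 higher and 10 to 141 lower, and a fit with the replicate number as a block gave 25 and 21. A filter of 5 left 47 lower models, and a minimum of 2-fold left 61. Beside the 27 called copy ratios, 15 were called with no filter (10 of the 27 among them), 17 when 0.1 was the pseudocount (15 of the 27), 35 with the filter of 5 (13 of the 27), 30 without the variance trend (26 of the 27), 0 with the block (limma, 394 at an unadjusted p under 0.05), and 0 to 17 when 1 library was left out. Same-numbered libraries did not deviate together (correlations of 0.106, -0.279 and 0.00905), and differently numbered ones gave -0.261 to 0.228. With 3 libraries per group these values cannot settle whether the numbers are a pairing. Median centring gave 142 higher and 130 lower models, and quantile normalization 130 and 112. Of the 10 largest rises and the 10 largest falls, 4 each kept their call in every alternative run, and 7 and 8 kept it with the block. With the block, 6 of the 24 models of loci called on all 4 copies kept their call, and 5 of the 11 risen models of the neighbouring group. All 12 models of the 3 risen loci with the smaller changes, all 4 of the second fallen locus and the copy 4 model of the first fallen locus were among those lost. The copy 4 model at 5825692 was lost too (limma adjusted p = 0.0507; 0.0103 to 0.0519 over 14 alternatives). No direction reversed. The cause of the lost calls was not tested. Without counts, the depth behind low values is unknown.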
